A study of Homo sapiens with 31 samples.

Results

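ChIP-seq peak lists of MUTZ3 cells with doxycycline (dox)-inducible 4xPLDLS were searched for genomic sites at which EVI1 was called with dox and not without it. A gained site was a merged interval that held a peak in both dox EVI1 lists and had no 1 bp overlap with a peak of either untreated EVI1 list. The members were therefore chosen by the presence and absence of EVI1 peaks, and their EVI1 status in these 4 lists is a description that carries no test. There were 1616 gained sites among 38285 sites called in both dox lists (4.22%) and among 89089 intervals called in at least 1 of the 4 lists. By the mirror rule, 3644 of 40449 sites called in both untreated lists (9.01%) had no dox peak and are called lost. The lists held 51389 and 72214 peaks untreated and 53806 and 47599 with dox, so these shares do not compare gain with loss. The remaining sites with a peak in both dox lists comprised 32250 kept sites, called in all 4 lists, 2158 sites that also had a peak in untreated replicate 1 only and 2261 that also had one in untreated replicate 2 only.

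MUTZ3 is a human acute myeloid leukemia line with an inversion of chromosome 3 and high expression of EVI1. The inducible cells were a bulk population transduced with a lentiviral construct, compared at 72 h with dox or untreated, and EVI1 and CTBP2 were each profiled in 2 libraries per condition. Untreated cells carried the same construct, and no dox-treated cells without 4xPLDLS were analysed here, so 4xPLDLS and dox cannot be told apart. The other lists were EVI1 and CTBP2 in unmodified MUTZ3 (1 library each), CTBP2 in MUTZ3 with retroviral 4xPLASS (2 libraries) and CTBP2 in untreated MOLM1 cells, another leukemia line, with an inducible hairpin against EVI1 (1 library).

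EVI1, encoded by MECOM, is a zinc finger transcription factor that is required in hematopoietic stem cells and drives an aggressive form of myeloid leukemia. Its first zinc finger domain recognizes GATA-like sequence, and its second recognizes sequence around GATGAG or ETS-like sites. Through the peptide PLDLS, EVI1 recruits CTBP1 and CTBP2, corepressors that bring histone demethylases, deacetylases and CoREST to chromatin. 4xPLDLS holds repeats of that peptide and competes for CTBP, whereas 4xPLASS is its mutated control. The list comparison asks at which places EVI1 was called after this competition and was not called before it.

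The untreated libraries of each target differed from one another before any class was formed. The EVI1 lists held 53806 and 47599 peaks with dox and 51389 and 72214 peaks without, and the CTBP2 lists 24588 and 23878 with dox and 62232 and 56526 without. Sequencing depth is unknown, because peak lists carry no read counts. Untreated EVI1 replicate 2 and untreated CTBP2 replicate 1 stood apart by base composition, with a median GC of 55.7% and 55.5% around their summits and of 58.1% and 59.5% over their 5000 strongest peaks. In the other 6 inducible lists the median over the 5000 strongest peaks lay between 49.3% and 55.5%. The labels do not say what the libraries of a replicate number share, nor that they came from separate cultures, and p-values measure only the spread between libraries.

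The sequences below are those of gained sites that rank high or that carry a contrast described further on. Each holds the summit and 50 bases on either side of it, on the plus strand of GRCh37, the same build as hg19, taken at the summit of the dox library with the higher fold enrichment. Capitals mark matches on either strand to the searched motifs, which were AGATAA for the first EVI1 zinc finger domain and its relatives, GATGAG for the second EVI1 domain, the ETS motif AGGAAGT, the RUNX motif TGTGGTT, TTGCNNAA (CEBP), TGANTCA (AP-1), GGGCGGG (SP and KLF), CAGCTG (E-box) and AGGGGGC (CTCF core). The NARS2 site is the best ranked gained site and holds an AP-1 match and an ETS match that share a base at the edge of its window. OGFRL1 is shown because it also had an EVI1 peak in unmodified cells, STRA8 because it had no peak in any other list, TRAF3 because its summit lies within RCOR1, KCTD16 for its CTBP2 status, and CTBP1 and ID2 for their genes. ARHGAP31 is shown as a strong site with no match.
NARS2, chr11:78512363-78512463: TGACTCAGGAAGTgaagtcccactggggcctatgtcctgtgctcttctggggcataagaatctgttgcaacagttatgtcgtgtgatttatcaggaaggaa
ARHGAP31, chr3:119062691-119062791: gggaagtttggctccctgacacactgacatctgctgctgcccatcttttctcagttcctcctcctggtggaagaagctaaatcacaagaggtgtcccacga
OGFRL1, chr6:71958163-71958263: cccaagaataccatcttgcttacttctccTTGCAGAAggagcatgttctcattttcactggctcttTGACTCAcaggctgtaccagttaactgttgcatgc
STRA8, chr7:134959296-134959396: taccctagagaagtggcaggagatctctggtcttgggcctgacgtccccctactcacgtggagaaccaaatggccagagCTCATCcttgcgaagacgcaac
TRAF3, chr14:103183700-103183800: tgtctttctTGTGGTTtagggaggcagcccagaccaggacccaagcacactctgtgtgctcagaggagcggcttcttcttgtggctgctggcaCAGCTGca
KCTD16, chr5:144091837-144091937: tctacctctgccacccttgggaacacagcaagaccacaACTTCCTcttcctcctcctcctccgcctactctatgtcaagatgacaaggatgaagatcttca
CTBP1, chr4:1261727-1261827: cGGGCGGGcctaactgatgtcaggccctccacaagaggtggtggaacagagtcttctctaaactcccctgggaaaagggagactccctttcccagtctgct
ID2, chr2:8294769-8294869: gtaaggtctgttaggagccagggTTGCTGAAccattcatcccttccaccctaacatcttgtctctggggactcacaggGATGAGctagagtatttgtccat

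Sites are named by the protein-coding gene with the nearest transcription start site (TSS), which need not be the gene they lie in. The strongest gained site by the worse of its 2 ranks lay at chr11:78512155-78512640, in an intron of the teneurin gene TENM4 and 226 kb upstream of the TSS of NARS2, a mitochondrial asparagine-tRNA ligase. Its fold enrichment, the ratio of signal to local background at the summit, was 14.8 in dox replicate 1 and 12.7 in dox replicate 2, at rank 4787 of 53806 and 5055 of 47599. It also had an EVI1 peak in unmodified MUTZ3, with a fold enrichment of 10.9 and rank 2640 of 21505. The site that followed it, in an intron of ARHGAP31 (a GTPase-activating protein for CDC42 and RAC1), had 12.8 and 12.9 in the dox lists and no EVI1 peak in unmodified cells.

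The 12 best ranked gained sites lay on 10 chromosomes, 7 in introns and 5 between genes, and none of them within 1 kb of a TSS. All 12 had a fold enrichment of at least 9.53 in dox replicate 1 and 8.88 in dox replicate 2. The LYPD1 site, in an intron of NCKAP5, had 12.2 and 11.3, and its CTBP2 peak in MOLM1 had a fold enrichment of 30.5 while no CTBP2 list of MUTZ3 held one. The intergenic OGFRL1 site had 10.7 and 14.3 in the dox EVI1 lists and 7.02 in unmodified cells. SPRY1 encodes an inhibitor of receptor tyrosine kinase signalling, and a gained site 579.7 kb from its TSS had 10.7 and 8.88. The site in MLANA, a melanocyte antigen gene, had 10.2 and 9.96, and that 42.6 kb from STRA8, a gene of meiotic entry, 9.57 and 10.6. Sites near ANKRD36B (10.6 and 10.8) and in NBPF15 (9.53 and 13.1) belong to gene families with near-identical copies, so reads there could have come from other copies. The PCMTD1 site, in an intron of the zinc finger gene ST18, had 12.2 and 15.5, and the IGSF21 site 9.54 and 9.18. Of the 12 sites, 5 had no peak in any of the 9 other lists and 3 had an EVI1 peak in unmodified cells.

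Apart from these, gained sites were weak. Their median fold enrichment was 4.87 in dox replicate 1 and 4.93 in dox replicate 2, against 7.64 and 6.68 at kept sites. The highest values were 14.8 and 15.5 at gained sites and 108 and 115 at kept sites. The median −log10 q was 5.81 and 5.82 at gained sites and 18.6 and 14.3 at kept sites, where q is the p-value of the peak adjusted over the genome. In dox replicate 1, 73.0% of gained sites ranked below the middle of the list and 13 sites lay in its strongest 20%, and in dox replicate 2 the figures were 69.6% and 48 sites. A −log10 q of at least 10 in both lists was reached by 77 gained sites (4.76%) and by 60.1% of kept sites. The fold enrichments of the 2 dox libraries were correlated across sites with a Spearman rho of 0.41 over gained sites and 0.82 over kept sites, a description over sites that share both libraries. The dox summits were 47 bp apart in the median at gained sites and 42 bp at kept sites. Gained intervals were also narrower, with a median width of 342 bp against 681 bp.

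Sites just outside the rule differed in strength by the untreated library that held the peak. Those with a peak in untreated replicate 2 only had a median dox fold enrichment of 5.01 and 4.72, and their untreated peak had a median −log10 q of 7.07. Those with a peak in untreated replicate 1 only were stronger than gained sites, with 5.37 and 6.14 in the dox lists and a median −log10 q of 8.93 in the untreated one. At the edge of the rule in space, 29 gained sites lay within 100 bp of an untreated EVI1 peak, 1 of them with a gap of 0 bp, and 176 (10.9%) lay within 500 bp. The median gap was 6029 bp. Among sites with an untreated peak, the smallest overlap was 5 bp, and 22 overlapped by at most 50 bp. A −log10 q of at least 5 in both dox libraries was reached by 692 of the 1616 gained sites (42.8%).

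Unmodified MUTZ3 gave an EVI1 list that the rule did not use. There, 133 of 1616 gained sites had a peak (8.23%, 95% Wilson interval 6.99 to 9.67), against 42.1% of all sites called in both dox lists, 46.4% (45.9 to 46.9) of kept sites and 2.58% (2.11 to 3.15) of lost sites. These intervals cover counting error only, and with 1 library no test was possible. At gained sites the unmodified peaks had 5.49 as their median fold enrichment, against 5.83 over their whole list. Their best rank was 1437 of 21505, so the gained sites included some of the strong EVI1 peaks of unmodified cells. With summits within 200 bp in place of a shared base pair, the shares were 7.67% for gained and 43.0% for kept sites.

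The share with an unmodified peak rose with strength in the dox lists. Sites called in both dox lists were divided into 5 equal bands by the lower of their 2 fold enrichments. In the weakest band, with a fold enrichment up to 4.09, 4.97% (3.52 to 6.97) of 624 gained sites and 16.4% (15.4 to 17.4) of 5473 kept sites had an unmodified EVI1 peak. In the band from 6.59 to 9.64, the shares were 27.5% (18.9 to 38.1) of 80 gained sites and 56.9% (55.8 to 58.1) of 7100 kept sites. In the strongest band, 2 of 8 gained sites had one. At matched strength, gained sites had a lower share than kept sites in each of the 4 weaker bands.

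The 2 untreated libraries did not set this share alike. Sites with a peak in untreated replicate 1 only had an unmodified peak at 40.5% (38.4 to 42.6), near the share of kept sites, while sites with a peak in untreated replicate 2 only had one at 6.32% (5.39 to 7.40), near that of gained sites. Without untreated replicate 1, the rule gave 3774 gained sites with 26.7% in the unmodified list. Without untreated replicate 2, it gave 3877 sites with 7.12%. Without dox replicate 1 there were 5147 gained sites with 5.67%, and without dox replicate 2 there were 7039 with 2.83%.

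The 5 best ranked gained sites with an unmodified peak were the NARS2, OGFRL1 and IGSF21 sites described above, a site in an intron of LRMDA and the TRAF3 site. The LRMDA site had a fold enrichment of 9.34 and 10.3 in the dox EVI1 lists and 8.16 in unmodified cells, and the nearest untreated peak lay 554 bp away. The TRAF3 site had 9.34 and 8.37 with dox and 4.68 in unmodified cells, and lay in an intron of RCOR1, which encodes the CoREST scaffold of the CTBP complex. None of the 4 inducible CTBP2 lists had a peak at either.

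CTBP2, whose lists the rule did not use, was called at few gained sites. In untreated cells CTBP2 had a peak at 21.8% of gained sites in replicate 1 and 27.7% in replicate 2, and with dox at 13.6% and 15.3%. The mean share was 24.8% ± 4.20 (SD, n = 2) untreated and 14.4% ± 1.23 (SD, n = 2) with dox, a difference of 10.3 points (exact two-sided permutation test, p = 0.333, the smallest that 2 against 2 libraries allow). The groups of libraries did not overlap, but the 2 untreated CTBP2 libraries differed by GC in opposite directions. At gained sites under 42% GC (n = 106), CTBP2 had a peak at 2.83% and 50% untreated and at 25.5% and 40.6% with dox, so the untreated libraries lay on both sides of the dox libraries. At gained sites of 62% GC or more (n = 56), it had a peak at 66.1% and 10.7% untreated and at 5.36% and 1.79% with dox. At kept sites the mean share was 90.6% ± 5.08 untreated and 52.8% ± 3.84 with dox, a difference of 37.8 points. The gap between kept and gained sites was 65.8 ± 9.28 points untreated and 38.4 ± 5.06 points with dox, which differed by 27.5 points (exact two-sided permutation test, p = 0.333). At lost sites the mean share was 53.4% untreated and 4.02% with dox, a difference of 49.4 points. The classes were set by EVI1 calls in the same conditions and against the same inputs, so these CTBP2 differences are not independent of the rule. Without untreated EVI1 replicate 2, the difference at gained sites was 26.5 points and that between kept and gained sites 9.53 points. Without untreated EVI1 replicate 1, the difference at gained sites was 9.86 points and the libraries overlapped (exact permutation test, p = 1).

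The direction at gained sites was not uniform over strength. In the band from 6.59 to 9.64, CTBP2 had a peak at 11.2% and 32.5% of 80 gained sites untreated and at 21.2% and 32.5% with dox, so the libraries overlapped. It also depended on the length of the CTBP2 lists. Each of the 4 CTBP2 lists was reduced to its 23878 peaks with the highest −log10 p, rather than the highest fold enrichment. CTBP2 was then called at 2.29% and 6.002% of gained sites in untreated cells and at 13.2% and 15.3% with dox, a difference of -10.1 points. At kept sites the same lists gave 67.1% and 56.5% untreated and 54.3% and 50.1% with dox. The cut removes any overall change in the number of CTBP2 peaks. Untreated CTBP2 peaks at gained sites had median ranks by fold enrichment of 46113 of 62232 and 36900 of 56526, both beyond 23878. The reversal therefore follows in part from the cut and does not measure a change in binding. At equal length, gained sites had the higher CTBP2 share with dox and kept sites the higher share without it. Gained sites were chosen for EVI1 calls with dox and none without, so this contrast is not independent of the rule. EVI1 and CTBP2 libraries of a condition were called against the same input, of which there was 1 per condition, and a change in input cannot be told apart from a change in binding.

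Read per site, 863 gained sites (53.4%) had no CTBP2 peak in any of the 4 lists, against 7.22% of all sites called in both dox lists. CTBP2 was called in both untreated lists at 152 gained sites (9.41%, background 74.6%) and in both dox lists at 104 (6.44%, background 37.8%). It was called in both untreated and no dox list at 75 gained sites (4.64%, background 21.7%), and in both dox and no untreated list at 17 (1.05%, background 0.149%). The last class held 57 sites in all, of which 17 were gained and 21 were kept. Another 16 had an EVI1 peak in untreated replicate 1 only and 3 in untreated replicate 2 only. The class made up 1.05% (0.658 to 1.68) of gained sites and 0.741% (0.457 to 1.201) of sites with a peak in untreated replicate 1 only. These 2 intervals overlapped. In the remaining lists, CTBP2 had a peak at 5.75% of gained sites in unmodified MUTZ3 (background 30.3%). The share was 1.49% and 14.7% in the 4xPLASS libraries (background 13.2% and 51.4%) and 34.2% in MOLM1 (background 62.7%). These lists held 16836, 6688, 31310 and 64569 peaks. A total of 578 gained sites (35.8%) had no peak in any of the 9 other lists, against 4.46% of all sites called in both dox lists. The share was 1.60% of kept and 23.4% of lost sites. It was 7.83% of sites with a peak in untreated replicate 1 only and 19.7% of those with a peak in untreated replicate 2 only.

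**Figure D1:**
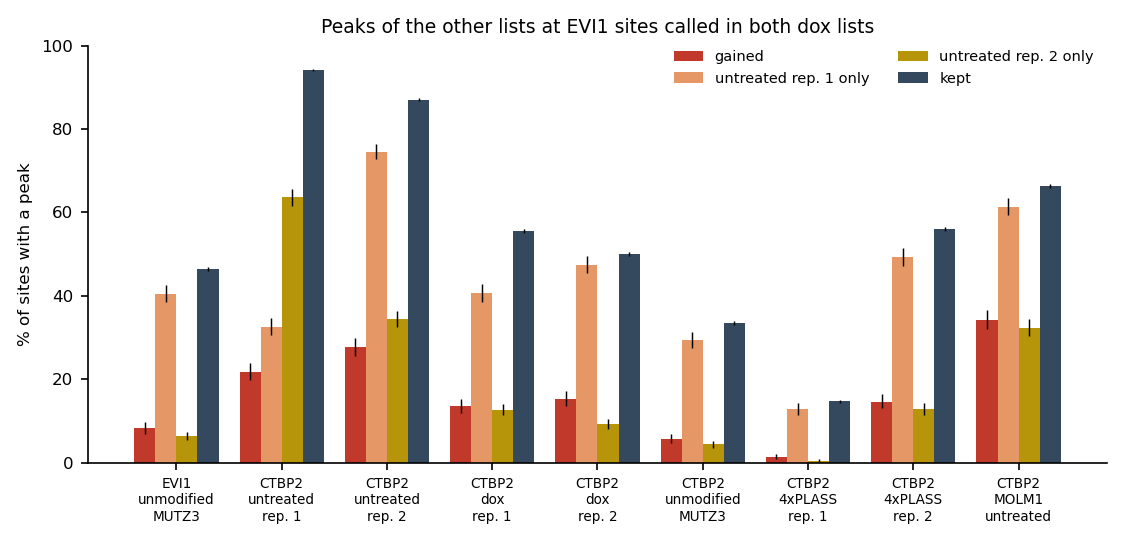
Share of sites with a peak (vertical axis, %) in each of 9 lists that the rule did not use (horizontal axis), for gained sites (red), sites also called in untreated replicate 1 only (orange) or 2 only (ochre) and kept sites (dark). Error bars are 95% Wilson intervals. The gained share is below the kept share in every list, from 1.49% in 4xPLASS replicate 1 to 34.2% in MOLM1.

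Gained sites with CTBP2 in both dox lists and in no untreated list included sites near SPRY1, CPQ, KCTD16, GPR151 and ASAH2. The KCTD16 site, intergenic and 541 kb from its TSS, had an EVI1 fold enrichment of 7.71 and 7.17 with dox and a CTBP2 fold enrichment of 6.41 and 8.16. CTBP2 was also called there in unmodified MUTZ3 (4.65), in 4xPLASS replicate 2 (6.95) and in MOLM1 (11.3), and EVI1 in unmodified MUTZ3 (6.09), so that 6 of the other 9 lists held a peak that the untreated inducible lists lacked. Its GC of 36.9% was the lowest of the sites named here. At the CPQ site CTBP2 had 4.81 and 5.94 with dox and 31.3 in MOLM1. The SPRY1 site had 4.01 and 4.53, the GPR151 site, in an intron of PPP2R2B, 5.02 and 7.28, and the ASAH2 site 5.02 and 5.60. An untreated EVI1 peak lay 797 bp from the GPR151 site.

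Gained sites with CTBP2 in both untreated lists and in no dox list included sites near CCNI, CCRL2, RPL11, TRIO and a gene listed as ENSG00000284691. The CCRL2 site lay in an intron of LTF, which encodes the neutrophil granule protein lactoferrin, with an EVI1 fold enrichment of 6.82 and 6.18 with dox and a CTBP2 fold enrichment of 5.14 and 5.33 untreated. The TRIO site had 6.55 and 6.15 for EVI1 with dox and 5.66 and 6.96 for CTBP2 untreated. At the RPL11 site CTBP2 had 6.29 and 5.38, and an unmodified EVI1 peak of 5.05 was present. CTBP2 had 3.75 and 5.10 at the CCNI site, and 6.63 and 5.50 at the last site.

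Few gained sites lay near a TSS. A summit lay within 1 kb of a protein-coding TSS at 55 of 1616 gained sites (3.40%, 2.62 to 4.40), against 24.5% of all sites called in both dox lists, 27.8% (27.3 to 28.3) of kept sites and 6.64% (5.88 to 7.496) of lost sites. Sites with a peak in untreated replicate 1 only had a share of 3.29% (2.62 to 4.13), near that of gained sites. Those with a peak in untreated replicate 2 only had 12.96%. The median distance to the TSS was 37.7 kb for gained, 11.9 kb for kept and 24.7 kb for lost sites. It was 45.4 kb for sites with a peak in untreated replicate 1 only and 24.3 kb for those with one in untreated replicate 2 only. Over 100 kb from any protein-coding TSS lay 386 gained sites (24.0%) and 12.7% of kept sites. This share was 29.7% of sites with a peak in untreated replicate 1 only and 17.9% of those with one in untreated replicate 2 only. On chromosomes 1 to 22, X and Y, 45.8% of gained summits lay in introns, 48.2% between genes, 2.43% in coding exons and 2.99% in exons of untranslated regions, against 37.8%, 41.99%, 5.18% and 12.9% of kept summits. Only 8 gained sites lay on other sequences of hg19, for which no sequence or gene was assigned.

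Across chromosomes, the gained share of sites called in both dox lists ran from 2.27% (1.502 to 3.41) on chromosome 22 and 2.36% (1.81 to 3.06) on chromosome 19 to 5.89% (4.79 to 7.24) on chromosome 8 and 6.17% (4.59 to 8.23) on chromosome 18, setting aside chromosome Y with 1 gained site of 115. Chromosome 1 had the most gained sites, 150 of 3784. Another gained summit lay within 10000 bp of 60 gained sites (3.71%), a share that was not computed for other classes.

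Base composition moved with the class. The median GC within 250 bp of the summit was 48.1% at gained sites and 56.3% at kept sites, 53.7% at lost sites, 44.9% at sites with a peak in untreated replicate 1 only and 53.9% at sites with a peak in untreated replicate 2 only. Of sites called in both dox lists with a GC under 42%, 12.6% (10.5 to 15.02) were gained, and with a GC of 62% or more, 0.574% (0.443 to 0.745). The share without a peak in untreated replicate 2 fell from 62.8% to 0.790% between these bins, and that without a peak in untreated replicate 1 from 14.98% to 4.46%. The library with the GC-richer peaks, untreated replicate 2, thus lacked peaks mainly at GC-poor sites, and the part of base composition in the number of gained sites was not tested beyond these values.

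The differences from kept sites were also read at matched GC and strength. Among sites with a GC of 46 to 50% and a lower dox fold enrichment under 5, an unmodified EVI1 peak was present at 3.58% (2.105 to 6.03) of 363 gained sites and 23.7% (21.5 to 26.0) of 1395 kept sites. In the same stratum, CTBP2 without dox had a peak at 17.6% and 31.4% of gained sites and at 79.8% and 82.4% of kept sites. With dox it had one at 13.2% and 12.7% of gained sites and at 31.8% and 33.6% of kept sites. A TSS lay within 1 kb at 1.102% of these gained sites and 4.80% of these kept sites. In this stratum an unmodified EVI1 peak was at 6.37% (4.01 to 9.96) of 267 sites with a peak in untreated replicate 2 only. The interval overlapped that of gained sites. It was at 17.0% (13.5 to 21.2) of 364 sites with a peak in untreated replicate 1 only. At these classes in turn, CTBP2 had a peak at 44.6% and 41.9%, and at 37.1% and 65.4%, without dox. With dox it had one at 10.9% and 12.4%, and at 21.4% and 25.3%. The lower TSS share of gained sites did not hold in every stratum. Under 42% GC it was 1.89% for gained and 1.37% for kept sites, and at 42 to 46% GC 1.93% and 2.31%, or 2.48% and 2.09% where the lower dox fold enrichment was at least 5. These strata were chosen after seeing the data.

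Motifs within 100 bp of the summit were counted in 1608 gained sites with sequence, of which 1027 (63.9%) held at least 1 of the 9 motifs, against 67.4% of kept sites. AGATAA was present at 11.7% (10.2 to 13.4) of gained sites, 7.59% (7.30 to 7.88) of kept sites and 8.28% of all sites called in both dox lists. GATGAG was present at 17.8% (16.1 to 19.8), 13.7% (13.3 to 14.1) and 14.1%, and the AP-1 motif TGANTCA at 11.6% (10.2 to 13.3), 6.67% (6.40 to 6.95) and 7.20%. Sites with a peak in untreated replicate 1 only had AGATAA at 16.8%, GATGAG at 16.1% and AP-1 at 11.8%. Those with one in untreated replicate 2 only had 7.43%, 14.5% and 7.07%. At a GC of 46 to 50%, these shares of gained and kept sites were 12.6% and 14.1% for AGATAA, 18.1% and 17.0% for GATGAG, and 12.6% (10.0 to 15.7) and 10.3% (9.46 to 11.2) for AP-1, with intervals that overlapped. The ETS motif AGGAAGT, the recognition sequence of ERG and FLI1, was present at 14.99% of gained and 14.7% of kept sites. At matched GC it was at 13.2% (10.5 to 16.3) and 21.3% (20.2 to 22.5). At that GC it was at 18.1% of sites with a peak in untreated replicate 1 only and 11.5% in untreated replicate 2 only. Lost sites had 12.9%. RUNX matches were at 8.27% of gained and 7.75% of kept sites, and at 9.54% and 12.4% at matched GC. GGGCGGG, the SP and KLF motif of GC-rich promoters, was at 3.17% of gained and 16.5% of kept sites, and at 2.099% and 3.11% at matched GC. E-box matches were at 17.1% of gained and 18.0% of kept sites, CEBP matches at 9.02% and 6.15%, and CTCF core matches at 5.53% and 10.1%. At matched GC these shares were 17.9% and 18.2%, 8.97% and 8.80%, and 5.53% and 5.27%.

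The 1608 gained sites with a gene fell to 1431 protein-coding genes, 10.3% of the 13941 genes nearest to a site called in both dox lists. Of these genes, 1279 had 1 gained site and 6 had 4 or more. JARID2, a DNA-binding subunit of Polycomb repressive complex 2, had 5 gained sites among 24 called in both dox lists, spread over 727 kb. BCL11A, a zinc finger repressor of fetal globin, had 4 of 19, and CITED2, a transcriptional coregulator, 4 of 16. KLF6 had 4 of 23, MYC 4 of 28 and SPTSSA 4 of 10. At each of these genes kept sites were present too, from 4 at SPTSSA to 18 at MYC, and the gained sites of JARID2 had a fold enrichment of 3.31 to 7.31 in dox replicate 1 and 3.56 to 8.68 in dox replicate 2. For 166 genes the gained sites were the only ones called in both dox lists.

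Among lists of blood and pathway genes, the gained share of sites is read against 4.22% over all sites. That share ran from 12.6% to 0.574% between the GC bins above, and the gene lists were not matched for GC or TSS distance. The CTBP corepressor list had 12 gained sites of 131 (9.16%) at 8 of its 21 genes, which were BCOR, CDYL, CTBP1, PHF21A, RCOR2, RREB1, ZNF217 and ZNF516. The CTBP1 site had an EVI1 fold enrichment of 9.34 and 6.17 with dox and a CTBP2 peak of 3.04 in untreated replicate 1 alone. The ZNF217 site had 5.51 and 5.21, with CTBP2 called in both untreated (3.84 and 3.05) and both dox lists (6.46 and 6.11), and the CDYL site, at a chromodomain corepressor, 6.09 and 5.28. Blood transcription factors had 16 of 317 (5.05%) at 8 of 46 genes, with 4 sites each at BCL11A and MYC, 2 each at FLI1 and PBX3 and 1 each at GATA2, GFI1, MECOM and ZEB1.

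The best BCL11A site had 6.41 and 7.05 with dox and an unmodified EVI1 peak of 5.37, the ZEB1 site, in a coding exon, 6.96 and 5.68, and the PBX3 site 5.19 and 6.20. The best MYC site, 627 kb from the TSS, differed between the dox libraries, with 6.09 and 14.3. Growth factor receptors and adhesion genes had 6 of 174 (3.45%). Among them, CD34, the surface marker of hematopoietic progenitors, had a site of 8.61 and 5.21 with an unmodified EVI1 peak of 7.39, and CD38 one of 5.14 and 5.54. The CD34 site lay 86.5 kb from its TSS, with an untreated EVI1 peak 629 bp away, and the CD38 site 78.0 kb from its TSS. Neutrophil and monocyte genes had 2 of 59 (3.39%), at CD14 and MMP8, and erythroid and megakaryocyte genes 0 of 40.

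TGF-beta and SMAD genes had 6 of 180 (3.33%), with 2 at ID2, a target of the pathway, and 1 each at SMAD2, SMAD3, SMAD4 and TGFBR1. The best ID2 site, 524 kb from the TSS, had 6.26 and 5.21 and a CTBP2 peak of 5.33 in 4xPLASS replicate 1. The SMAD3 site, 46.1 kb from the TSS, had 5.32 and 5.21 with a CTBP2 peak of 8.76 in MOLM1. The nearest untreated EVI1 peaks lay 1498 bp and 856 bp from these sites. Immediate-early and AP-1 genes had 6 of 168 (3.57%), led by a DUSP4 site, 315 kb from the TSS, with 5.66 and 6.20. Cell cycle and apoptosis genes had 4 of 117 (3.42%), at BCL2L11, CCND1 and PMAIP1. In lists of genes of other tissues, lymphoid genes had 3 of 52 (5.77%), with a CD8A site of 6.86 and 5.09, epithelial genes 1 of 21 (4.76%), at GRHL2 with 6.48 and 4.78, and neuronal genes 3 of 28 (10.7%), with a SYT1 site of 5.01 and 5.52 that also had unmodified EVI1 (4.90) and MOLM1 CTBP2 (28.0) peaks. The GRHL2 site lay 116 kb from its TSS and 514 bp from an untreated EVI1 peak, and the SYT1 site 445 kb from its TSS. The gene lists are short, and their shares are counts without a test.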

How the data were processed

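The authors aligned ChIP-seq reads to hg19 and called peaks per library against input. The submitters' processing notes name bcl2fastq 1.8.4, Bowtie 1.1.1, MACS2 2.1.2 and deepTools 3.5.1. The deposited lists give a fold enrichment (a ratio of signal to local background), a −log10 p and a −log10 q per peak, besides a display score by the authors that was not used. They hold no read counts, so the authors' differential analysis of reads in peaks was not repeated, and thresholds act on calls rather than on binding. Replicates were not pooled.

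Peaks of 13 lists were read with pandas 2.3.3, and sites were merged at 1 bp overlap and tested on simulated lists. Each peak was ranked by fold enrichment. Shares have 95% Wilson intervals (scipy 1.17.1), and libraries were compared by exact two-sided permutation. Genes and gene parts came from GENCODE release 44 mapped to GRCh37 (20176 protein-coding genes), with exons counted before introns. GC was taken within 250 bp and motifs within 100 bp of the summit, read with pysam 0.24.0. Sequence of the 8 gained sites outside chromosomes 1 to 22, X and Y was not analysed here.

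Members and gene lists were chosen with earlier results of these data known. Named sites were the 12 best by the worse dox rank, the 5 best with an unmodified EVI1 peak, the 15 best at listed genes, up to 8 genes with at least 4 gained sites, and up to 5 of each of 2 CTBP2 classes. Of the 12 best, 1 is not reported here. Alternatives varied thresholds, list length, overlap, libraries and pairing.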

Additional observations from a re-analysis of the deposited data

How the results depend on the processing

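Leaving out 1 EVI1 library in turn gave 3774 to 7039 gained sites, with 2.83% to 26.7% of them in the unmodified EVI1 list, where untreated replicate 1 decided the upper value. A −log10 q of at least 5 in the dox lists alone gave 692 sites and 12.7%, in all 4 EVI1 lists 14.2%, and a fold enrichment of at least 5 in all 4 lists 19.0%. Alternatives chosen after seeing the data kept sites with a GC under 50% (1044 sites, 11.1% in the unmodified list, 1.63% within 1 kb of a TSS) or of 50% or more (563 sites, 3.02% and 6.75%). With TSS of every gene type, 7.86% of gained sites lay within 1 kb. With the 4 EVI1 lists reduced to equal size, 2147 of 36778 sites were gained, 9.04% of them with an unmodified EVI1 peak. The lost share at equal size was not computed. The CTBP2 difference at gained sites, untreated minus dox, was 10.3 points. It reversed to -10.1 points with CTBP2 lists of equal length, which hold no overall change in peak number. It stayed above 0 under the other alternatives, from 5.80 with a GC under 50% to 26.5 without untreated EVI1 replicate 2. The difference between kept and gained sites stayed above 0 under every alternative run, from 9.53 without untreated EVI1 replicate 2 to 37.9 with a −log10 q of at least 5 in the CTBP2 lists. It is not independent of the rule that formed the classes. The p was 1 for the difference at gained sites without untreated EVI1 replicate 1 (9.86 points) and with a GC under 50%, and no alternative gave a p below 0.33.

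Whether replicate numbers pair the samples is in doubt. The difference between replicates 1 and 2 in log2 fold enrichment of EVI1 correlated between dox and untreated libraries at −0.22 over 32250 kept sites, and that of CTBP2 at 0.19 over 13340. Between EVI1 and CTBP2 it correlated at −0.42 in untreated and 0.13 in dox libraries. Both negative values involve the untreated EVI1 libraries and both positive values do not. Untreated EVI1 replicate 2 and untreated CTBP2 replicate 1 also had the GC-richer peaks, and no correlation was adjusted for GC. Whether the numbers of the untreated EVI1 libraries are exchanged was not tested, and the numbers were kept as labelled. With the replicate block, dox replicate 1 was set against untreated replicate 1 and dox replicate 2 against untreated replicate 2, which gave 1663 gained sites, 8.24% in the unmodified list and CTBP2 differences of 11.1 and 26.7 points (exact permutation of pairs, p = 0.5, the smallest that 2 pairs allow). The crossed pairing, added after seeing the data, gave 1651 sites. Without read counts, depth could not be matched between libraries, and a site without a peak was not called in that list, which does not show that the factor was absent.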
